A study of Mus musculus with 36 samples.

Results

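Antibodies against the Cas9 proteins of Staphylococcus aureus (SaCas9) and Streptococcus pyogenes (SpCas9) were compared by chromatin immunoprecipitation sequencing (ChIP-seq) of mouse hypothalamus, guide by guide. The rows taken were every peak of the 4 hypothalamus lists, 490 of the 822 peaks in all 6 lists of the study. With the guide RNA for the Sim1 promoter there were 140 SaCas9 and 92 SpCas9 peaks. With the guide RNA for the Sim1 enhancer there were 121 SaCas9 and 137 SpCas9 peaks. A peak was called shared where it overlapped a peak of the other antibody with the same guide by at least 1 bp, and antibody-specific otherwise. The animals of all 4 groups were adult Sim1 +/- mice of the B6/FVB strain, and no group was wild type. Hypothalami of the promoter-guide groups came from females, and those of the enhancer-guide groups were pooled from males and females, so guide and sex cannot be told apart. SaCas9 was precipitated with a monoclonal antibody and SpCas9 with a polyclonal one. The labels do not say which Cas9 protein the animals carried, nor in which cells it was made. The labels name 2 libraries for each group, 8 in all, but the peaks are given as 1 list per group, so no value below has a replicate and no test was made. The remaining 2 lists, of SpCas9 in Neuro2A cells, a mouse neuroblastoma line, serve only as a place to look for the same sites.

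CRISPR activation uses a Cas9 that can no longer cut, fused to a transcriptional activator, and a guide RNA that brings it to a promoter or enhancer. SaCas9 and SpCas9 are related proteins that need different short sequence motifs beside the target, the protospacer adjacent motifs. A ChIP-seq peak is a stretch of genome where sequenced fragments pile up above a local background. Sim1, the gene targeted here, encodes a basic helix-loop-helix transcription factor on which the paraventricular nucleus, a feeding-restraining part of the hypothalamus, depends.

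The labels separate the guides, but the lists do not separate them at Sim1. Within 1 Mb of Sim1 each of the 4 hypothalamus lists held the same 2 peaks, whichever guide and antibody the list was labelled with. Both were also in both Neuro2A lists. A peak at either site therefore does not show which guide a library carried, and the results that turn on it are given for both guides.

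Promoter windows of 4 genes are printed because SaCas9 peaks of the promoter guide reached them. They run from 250 bases before a gene's listed start to 50 after, from RefSeq on GRCm38.p6, 5′ to 3′ on the gene's strand, with the bases inside the SaCas9 peak in capitals. A230054N11Rik lies on the strand opposite to Sim1, and its window lies in the site at the start of Sim1. Med16 encodes a subunit of Mediator, the complex that links transcription factors to RNA polymerase II, and Klk6 a secreted serine protease. Both were shared by the antibodies with the promoter guide. BC016579 held the antibody-specific SaCas9 peak of highest fold.
A230054N11Rik, chr10:50894485-50894784 (minus strand): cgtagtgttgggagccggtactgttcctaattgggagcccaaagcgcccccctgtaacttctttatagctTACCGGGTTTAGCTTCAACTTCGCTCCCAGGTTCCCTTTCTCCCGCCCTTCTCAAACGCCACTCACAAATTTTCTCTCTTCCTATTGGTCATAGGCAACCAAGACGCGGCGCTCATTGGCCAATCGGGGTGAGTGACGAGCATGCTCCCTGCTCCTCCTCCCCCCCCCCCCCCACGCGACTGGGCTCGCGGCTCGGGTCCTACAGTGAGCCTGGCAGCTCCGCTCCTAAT
Med16, chr10:79908889-79909188 (minus strand): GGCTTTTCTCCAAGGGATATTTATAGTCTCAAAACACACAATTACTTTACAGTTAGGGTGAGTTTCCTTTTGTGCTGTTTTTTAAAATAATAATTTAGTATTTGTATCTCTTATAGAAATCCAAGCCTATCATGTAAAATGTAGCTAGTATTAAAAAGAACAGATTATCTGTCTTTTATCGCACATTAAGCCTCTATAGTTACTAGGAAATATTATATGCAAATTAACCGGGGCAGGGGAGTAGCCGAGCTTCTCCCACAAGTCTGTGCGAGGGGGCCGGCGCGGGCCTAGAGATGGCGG
BC016579, chr16:45654069-45654368 (minus strand): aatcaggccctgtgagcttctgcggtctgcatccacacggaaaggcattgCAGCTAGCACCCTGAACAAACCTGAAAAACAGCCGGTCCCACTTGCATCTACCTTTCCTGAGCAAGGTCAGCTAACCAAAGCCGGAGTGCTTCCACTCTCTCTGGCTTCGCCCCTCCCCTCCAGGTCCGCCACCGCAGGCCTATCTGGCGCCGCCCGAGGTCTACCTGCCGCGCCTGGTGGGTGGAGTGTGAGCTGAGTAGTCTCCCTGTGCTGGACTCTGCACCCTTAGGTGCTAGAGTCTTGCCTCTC
Klk6, chr7:43824294-43824593 (plus strand): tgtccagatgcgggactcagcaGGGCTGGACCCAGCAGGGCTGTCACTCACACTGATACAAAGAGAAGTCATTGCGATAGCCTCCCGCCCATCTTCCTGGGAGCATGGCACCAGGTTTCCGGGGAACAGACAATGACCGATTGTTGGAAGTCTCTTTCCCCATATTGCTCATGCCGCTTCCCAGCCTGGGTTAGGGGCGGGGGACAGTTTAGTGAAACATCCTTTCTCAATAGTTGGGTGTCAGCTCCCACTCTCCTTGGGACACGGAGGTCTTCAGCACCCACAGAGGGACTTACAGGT
The peak covered 230, 300, 250 and 278 of the 300 bases of these windows, in the order printed. Their GC content was 58.7%, 39.3%, 60% and 55.7%, against a median of 52.7% over all 32851 windows of the table. Few peaks of either antibody reached such a window. With the promoter guide 4 SaCas9 peaks (2.86%) and 6 SpCas9 peaks (6.52%) did, and with the enhancer guide 3 (2.48%) and 7 (5.11%).

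Over the whole lists, most peaks of either antibody had no partner with the other. With the promoter guide 29 of 140 SaCas9 peaks (20.7%) overlapped a SpCas9 peak, and 33 of 92 SpCas9 peaks (35.9%) overlapped a SaCas9 peak. With the enhancer guide the shares were 20 of 121 (16.5%) and 27 of 137 (19.7%). Where both lists were limited to a fold of at least 5, the enhancer-guide shares were 9 of 10 SaCas9 peaks (90%) and 9 of 122 SpCas9 peaks (7.38%), and the promoter-guide shares 11 of 61 (18%) and 11 of 74 (14.9%). Joined into sites, the shared peaks of the whole lists gave 29 shared places for the promoter guide and 20 for the enhancer guide. Of these places 13 and 12 were also shared by the antibodies with the other guide. Crossing the guides gave similar shares. SaCas9 peaks of the enhancer guide overlapped SpCas9 peaks of the promoter guide in 26 of 121 cases (21.5%), and SaCas9 peaks of the promoter guide overlapped SpCas9 peaks of the enhancer guide in 21 of 140 (15.0%). Lists of 1 antibody with different guides resembled each other more. Of the SaCas9 peaks, 89 of 140 (63.6%) with the promoter guide and 90 of 121 (74.4%) with the enhancer guide had a partner in the list of the other guide. For SpCas9 these were 70 of 92 (76.1%) and 69 of 137 (50.4%).

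**Figure D1:**
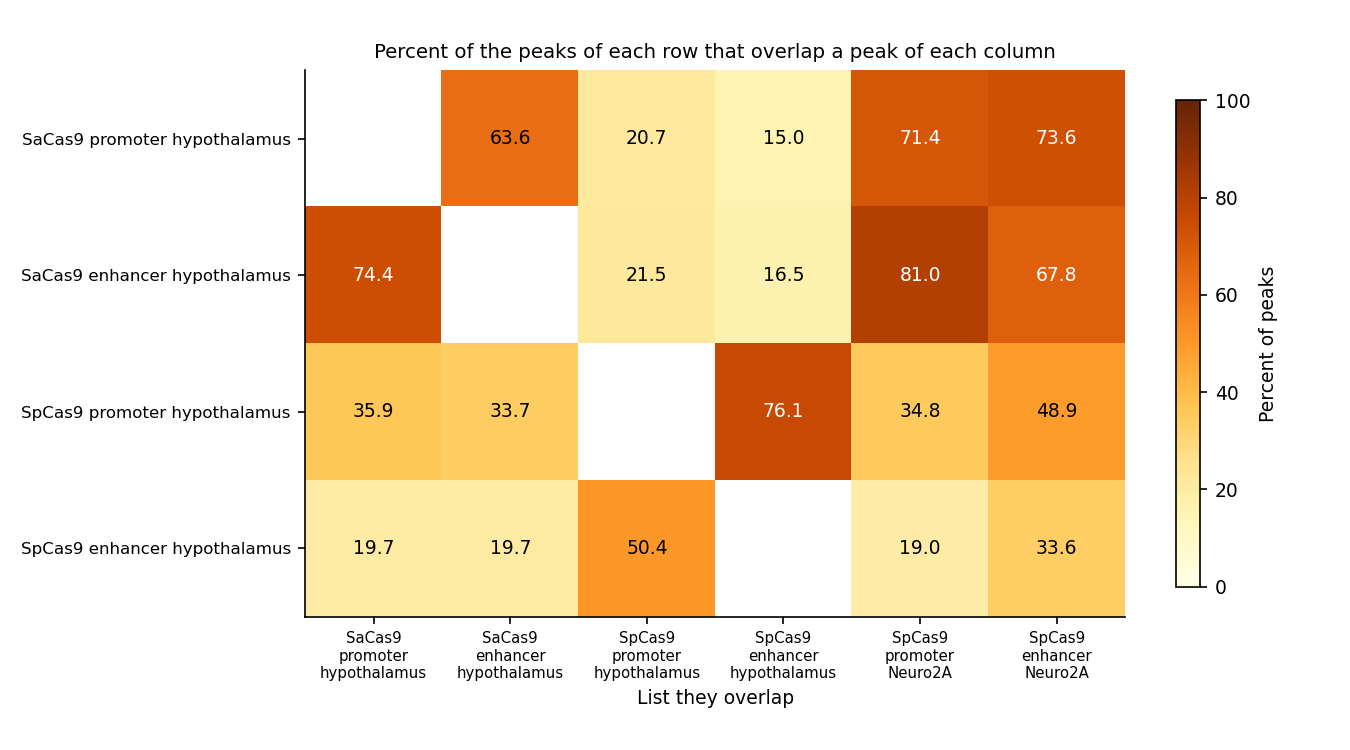
Percent of the peaks of each hypothalamus list (rows) that overlap by at least 1 bp a peak of each list of the study (columns), with the value printed in each cell and as colour. The SaCas9 lists overlap each other (63.6 and 74.4%) and the Neuro2A lists (67.8 to 81.0%) more than the hypothalamus SpCas9 lists (15.0 to 21.5%).

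The SaCas9 peaks, although from hypothalamus, overlapped the SpCas9 lists of Neuro2A cells more than those of hypothalamus. The Neuro2A lists were also larger, with 127 promoter-guide and 205 enhancer-guide peaks over 103850 and 152057 bp. The hypothalamus SpCas9 lists held 92 and 137 peaks over 57802 and 79456 bp. A larger list leaves more room for overlap, and the part of this was not tested. With the promoter guide 100 of 140 (71.4%) had a partner in the Neuro2A list of that guide, and with the enhancer guide 82 of 121 (67.8%). The same shares for the hypothalamus SpCas9 peaks were 32 of 92 (34.8%) and 46 of 137 (33.6%). Among peaks of low local background, defined with the fold below, 37 of 67 SaCas9 peaks (55.2%) of the promoter guide and 27 of 33 (81.8%) of the enhancer guide had a Neuro2A partner of the same guide, against 14 of 74 (18.9%) and 37 of 122 (30.3%) for SpCas9. Of the SaCas9-specific peaks of the promoter guide, 89 of 111 (80.2%) were in a Neuro2A list, and 18 were in no other list of the study. For the enhancer guide 87 of 101 (86.1%) were, and 11 were in no other list. Of the SpCas9-specific peaks, 15 of 59 (25.4%) and 25 of 110 (22.7%) were in a Neuro2A list. The enhancer-guide SpCas9 list held the most peaks found nowhere else, 50 with a median fold of 6.90, against 9 with a median fold of 9.11 for the promoter guide.

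The lists of the antibodies differed in where their peaks lay. The labels name input libraries for SpCas9 hypothalamus only, and the part of the control in this difference was not tested. Scaffolds not placed on a chromosome held 35 of the 140 SaCas9 peaks (25%) of the promoter guide and 37 of 121 (30.6%) of the enhancer guide. For SpCas9 they held 3 and 0. The first 3.2 Mb of chromosome 9 held another 21 and 20 SaCas9 peaks, against 3 and 0 SpCas9 peaks. The mitochondrial genome held 2 SaCas9 peaks with either guide, and 2 and 7 SpCas9 peaks. Elsewhere on the chromosomes lay 82 and 62 SaCas9 peaks and 84 and 130 SpCas9 peaks.

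Split by sharing, few SpCas9 peaks lay in these special places. With the promoter guide there were 3 on scaffolds, 3 at the start of chromosome 9 and 2 in the mitochondrial genome. With the enhancer guide there were only the 7 mitochondrial ones. SaCas9 peaks of that guide covered mitochondrial bases 1 to 6580 and 10848 to 16299. Over most of that genome a SpCas9 peak would therefore count as shared by the 1 bp rule, so little is read from the split. No antibody-specific SpCas9 peak lay on a scaffold, at the start of chromosome 9 or in the mitochondrial genome: all 59 with the promoter guide and all 110 with the enhancer guide were elsewhere. Of the SaCas9-specific peaks 60 of 111 and 44 of 101 were elsewhere. Counted over the whole list, SaCas9 peaks lay in RefSeq gene bodies less often than SpCas9 peaks, 52 of 140 (37.1%) against 52 of 92 (56.5%) with the promoter guide and 37 of 121 (30.6%) against 83 of 137 (60.6%) with the enhancer guide. Among the peaks elsewhere on chromosomes these shares were 61.0% against 59.5%, and 56.5% against 58.5%. A listed gene start was within 1 kb of 5 SaCas9 and 7 SpCas9 peaks of the promoter guide, and of 3 and 9 of the enhancer guide. Exons and introns were not analysed here.

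**Figure D2:**
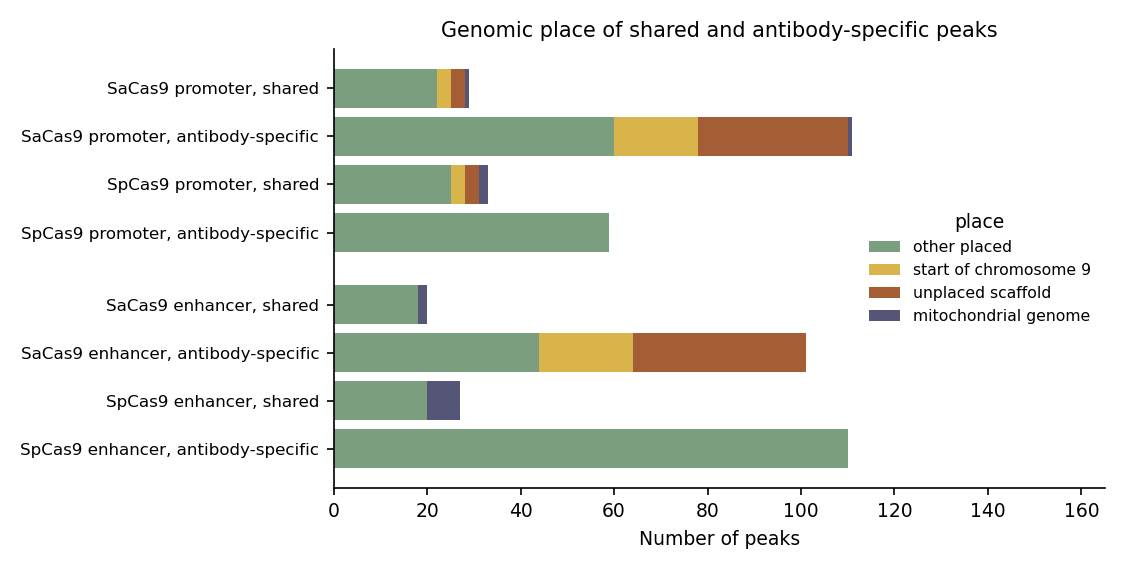
Number of peaks (horizontal axis) of each antibody and guide, split into shared and antibody-specific, with colours for the place in the genome. SpCas9-specific peaks (59 and 110) lie only on chromosomes outside the start of chromosome 9, while 32 and 37 SaCas9-specific peaks lie on unplaced scaffolds.

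SaCas9 peaks were taller but less enriched than SpCas9 peaks. The pileup, the number of fragments over the summit, had a median of 72.5 (16 to 451) for SaCas9 and 28.5 (8 to 380) for SpCas9 with the promoter guide. For the enhancer guide it was 119 (20 to 551) and 26 (10 to 376). The fold enrichment, the pileup over the local background that the authors' peak caller estimated, went the other way. Its median was 4.61 (1.72 to 69.7) for SaCas9 and 12.5 (1.68 to 266) for SpCas9 with the promoter guide. With the enhancer guide it was 2.95 (1.58 to 39.0) and 8.60 (1.57 to 200). A fold of at least 10 was reached by 18 SaCas9 and 53 SpCas9 peaks of the promoter guide, and by 4 and 58 of the enhancer guide. Peak lengths were alike, with medians of 577.5 and 563.5 bp for the promoter guide and 628 and 565 bp for the enhancer guide.

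Dividing pileup plus 1 by the fold gives a background term for each peak. It includes a pseudocount of 1 and so is not the background itself. Its lowest value, reached within 0.1% by 7 to 62 peaks of a list, was 3.65 for SaCas9 and 1.43 for SpCas9 with the promoter guide, a ratio of 2.56, and 5.74 and 1.88 with the enhancer guide, a ratio of 3.05. At that lowest term an equal pileup corresponds to a SaCas9 fold 2.56 or 3.05 times lower. A term of at least 5 times the lowest of its list is called raised background here, a limit chosen after the values were seen. The pseudocount is a larger part of the lower SpCas9 terms. Raised background thus asks for a larger multiple of the background itself in the SpCas9 lists, and the part of this in the shares was not tested. Raised background lay behind 73 of 140 SaCas9 peaks (52.1%) and 18 of 92 SpCas9 peaks (19.6%) of the promoter guide, and behind 88 of 121 (72.7%) and 15 of 137 (10.9%) of the enhancer guide. Without these peaks the median SaCas9 fold was 6.13 and 4.46, still below the SpCas9 median of 15.6 and 9.61 for peaks of low background. The read totals and the part of library depth in these differences were not tested.

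**Figure D3:**
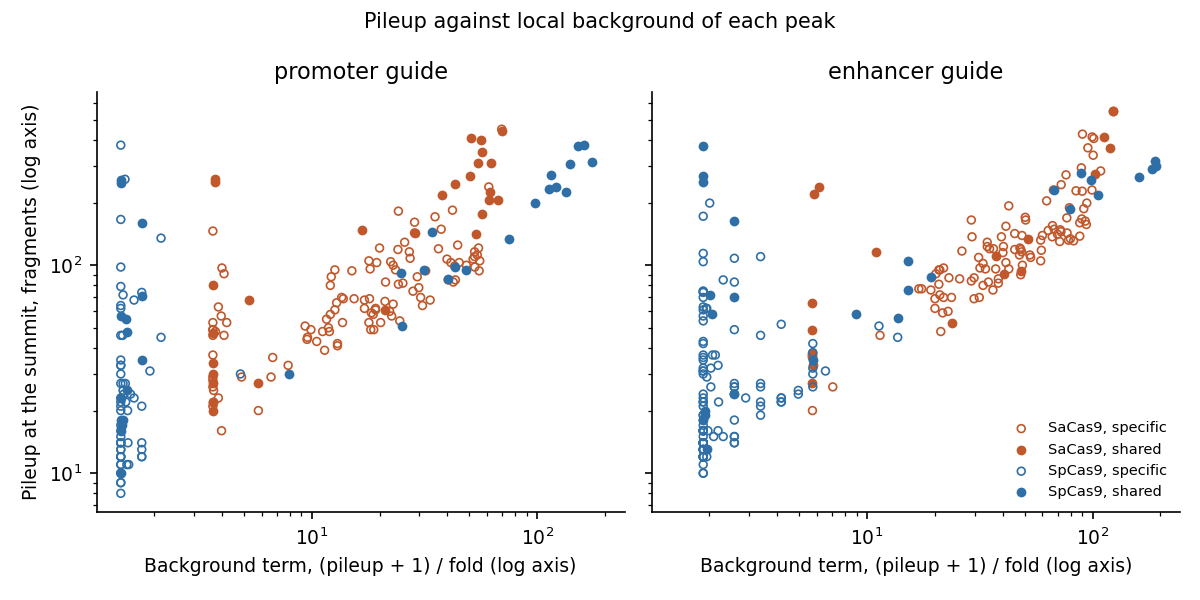
Pileup at the summit in fragments against the background term, (pileup + 1) / fold, for each peak. Both axes are logarithmic, and points are filled for shared and open for antibody-specific peaks. At the lowest term of their lists (1.43 and 1.88) lie 41 of 92 and 62 of 137 SpCas9 peaks. Of SaCas9 peaks 52.1 and 72.7% lie at 5 times or more of theirs (3.65 and 5.74).

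Shared and specific peaks ranked differently by fold and by pileup. The median SaCas9 fold was 6.15 for shared and 4.26 for specific peaks with the promoter guide, and 4.67 and 2.77 with the enhancer guide. For SpCas9 it was 3.92 for shared and 14.7 for specific peaks with the promoter guide, and 6.60 and 9.03 with the enhancer guide. The median SpCas9 pileup had the opposite order, 95 for shared and 22 for specific peaks with the promoter guide, and 105 and 23 with the enhancer guide. For SaCas9 it was 177 and 69, and 102.5 and 120. Raised background lay behind 18 of the 33 and 13 of the 27 shared SpCas9 peaks, against 0 of 59 and 2 of 110 specific ones. When raised peaks were left out of each list, shared peaks had the higher median fold for both antibodies. The ratio to specific peaks was 1.38 and 2.13 for SpCas9, and 1.65 and 1.78 for SaCas9, with the promoter and enhancer guides.

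**Figure D4:**
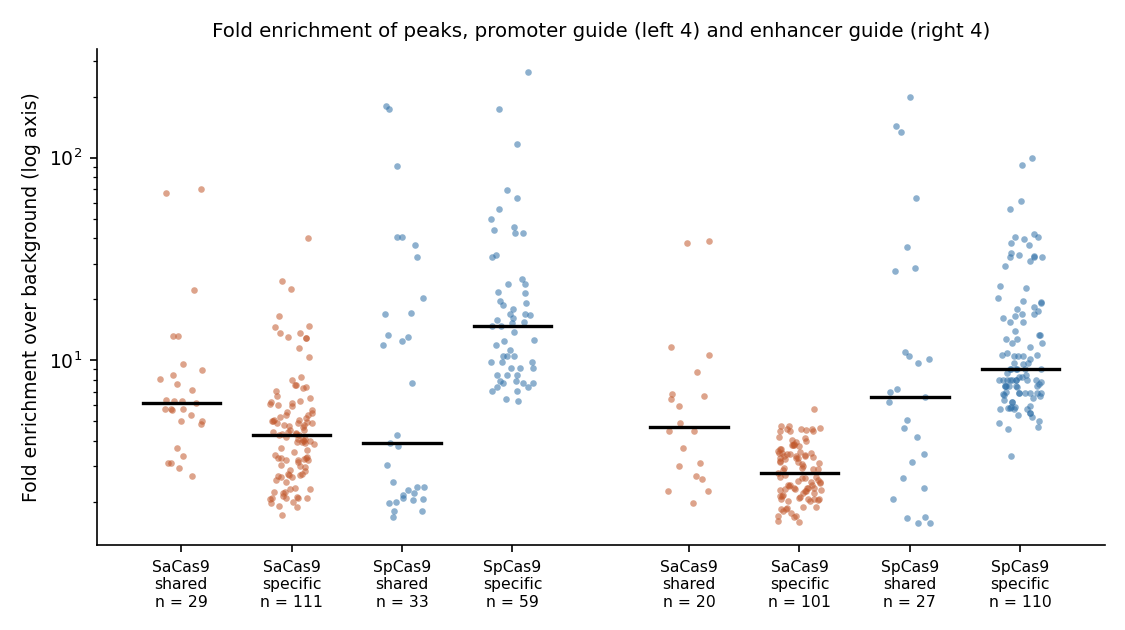
Fold enrichment over background of every hypothalamus peak on a log axis, by guide, antibody and sharing. Points are peaks and black lines are medians; the SpCas9-specific medians (14.7 and 9.03) are above the other medians of the same guide, and the SaCas9-specific peaks of the enhancer guide end at 5.72.

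The 2 sites at Sim1 carried the highest SaCas9 folds with either guide. The first, chr10:50893926-50894714 in the SaCas9 list of the promoter guide, covers the first bases of the Sim1 gene body and the start of A230054N11Rik, and ends 937 bp before the listed start of Sim1. Its SaCas9 pileup was 251 with the promoter guide and 221 with the enhancer guide, and its SpCas9 pileup 248 and 252. The SaCas9 pileup was thus 1.01 and 0.877 times that of SpCas9. The fold was 67.3 and 38.0 for SaCas9 and 175 and 134 for SpCas9, so that the SpCas9 fold was 2.59 and 3.53 times higher. In Neuro2A cells SpCas9 gave a pileup of 244 and 250 there.

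The second site, chr10:51257370-51258158, lies between genes, 268214 bp past the end of Sim1 and 17700 bp from Gm5040. Its SaCas9 pileup was 259 with the promoter guide and 239 with the enhancer guide, against 256 and 268 for SpCas9. Its fold was 69.7 and 39.0 for SaCas9 and 180 and 143 for SpCas9. It ranked above the site at the start of Sim1 in both SaCas9 lists and both SpCas9 lists. At both sites the SaCas9 pileup was higher in the list of the promoter guide, and the SpCas9 pileup in the list of the enhancer guide. With 1 list each, the spread behind these differences is unknown.

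With the promoter guide, 12 shared sites had low background in both lists, and at 10 of them the SpCas9 fold was the higher. Pileup was higher for SaCas9 at 7 and for SpCas9 at 5, with a median SaCas9 to SpCas9 ratio of 1.01 (0.170 to 4.44). Besides the Sim1 sites the highest SaCas9 fold was in Fam83d, which encodes a protein of the mitotic spindle, at chr2:158775956-158776554. Fam83d had a SaCas9 pileup of 80 (fold 22.2) against 18 (fold 13.3) for SpCas9. Med16, at chr10:79908680-79909407, was the other site of higher SaCas9 fold, with a pileup of 68 (fold 13.1) against 17 (fold 12.5). Its peak also overlaps the annotated gene Gm24019.

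At the remaining 8 of these 12 low-background sites the SpCas9 fold was the higher. In Tead1, whose product is a DNA-binding partner of the Hippo pathway effector YAP, SaCas9 had a pileup of 27 (fold 7.67) and SpCas9 159 (fold 90.5). In Hivep2, which encodes a zinc finger transcription factor, the pileups were 27 (fold 4.82) and 57 (fold 40.7). At the start of Klk6 they were 20 (fold 5.75) and 48 (fold 32.3). Ctnnbl1, for a protein that associates with the spliceosome, had the lowest SpCas9 pileup, 22 (fold 6.28) against 10 (fold 7.71). Between genes, a site 7711 bp from 1700052I22Rik had pileups of 47 and 55 (folds of 13.1 and 37.0), and a site 26521 bp from Gm34145 had 30 and 71 (folds of 8.47 and 40.7). A site 10067 bp from 4930527A07Rik had 34 and 23 (folds of 9.59 and 16.8), and a site 127482 bp from Gm7114 had 22 and 16 (folds of 6.30 and 11.9). Outside Sim1, then, SaCas9 had the higher pileup at some sites and SpCas9 at others. The summits of both antibodies were close, with a median distance of 5.5 bp over the 12 sites.

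With the enhancer guide, 10 shared sites had low background in both lists, and SpCas9 had the higher fold at 8 and the higher pileup at 7. The median SaCas9 to SpCas9 pileup ratio was 0.861 (0.0984 to 6.11). The sites in Fam83d and Med16 were again the ones of higher SaCas9 fold. Fam83d had pileups of 66 and 18 (folds of 11.7 and 10.1), and Med16 of 116 and 19 (folds of 10.6 and 10.4). Tead1 had 36 and 163 (folds of 6.45 and 63.4), the site near 1700052I22Rik 49 and 58 (folds of 8.71 and 28.7), and that near Gm34145 33 and 70 (folds of 5.91 and 27.4). These sites thus kept with the enhancer guide the order of the antibodies seen with the promoter guide.

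Other sites were shared with the enhancer guide alone. In Zc3h7a, which encodes a zinc finger protein, the SaCas9 pileup was 53 (fold 2.26) and the SpCas9 pileup 35 (fold 6.25). In Gm34259 the SpCas9 background was raised, and the pileups were 38 and 105 (folds of 6.79 and 6.94). The widest gap was at chr14:15657554-15658482, 116707 bp from Gm31804, where SaCas9 had a pileup of 37 (fold 6.62) and SpCas9 376 (fold 200). With the promoter guide the SpCas9 peak there, of fold 266 and pileup 378, had the highest fold of its list, and the SaCas9 list held no peak there. The lowest SaCas9 pileup of any peak in that list was 16.

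**Figure D5:**
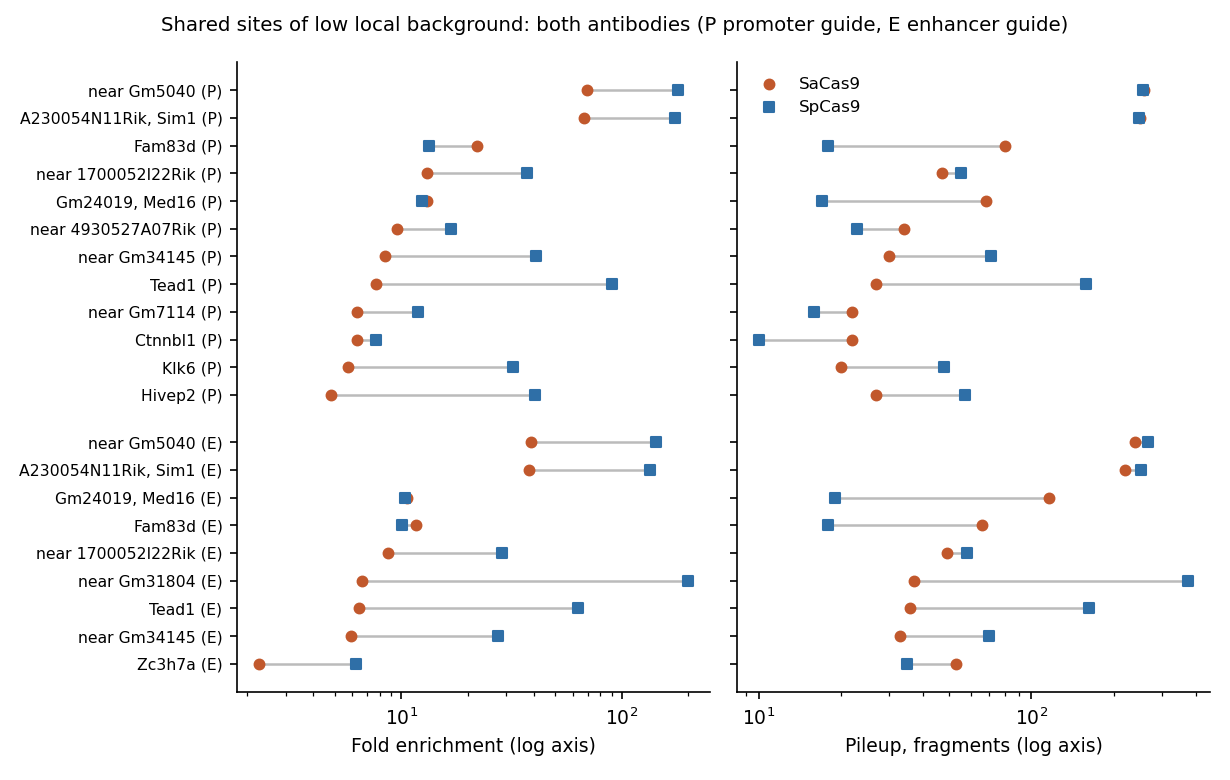
Fold enrichment (left) and pileup in fragments (right), on log axes, of SaCas9 (circles) and SpCas9 (squares) at the 12 promoter-guide (P) and 9 of the 10 enhancer-guide (E) shared sites with low background in both lists, named by the gene they lie in or near. At the Sim1 site and the site near Gm5040 the pileups nearly coincide (ratios of 0.877 to 1.01), while Fam83d and Med16 have more SaCas9 and Tead1 more SpCas9 pileup with either guide.

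At shared sites of raised background the antibodies differed in another way. With the promoter guide there were 17 such sites, and SaCas9 had the higher fold at 12 of them and the higher pileup at 16. The median ratio of SaCas9 to SpCas9 was 2.71 for fold and 1.14 for pileup. Examples were chr2:98662033-98663161, between genes, with pileups of 410 and 376 (folds of 8.07 and 2.5), and chr14:19415640-19419799 with 350 and 307 (folds of 6.15 and 2.21). In the ribosomal RNA related gene Rn18s-rs5 they were 225 and 95 (folds of 3.68 and 3.05) at one site and 205 and 92 at another, where SpCas9 had the higher fold (3.38 and 3.75). The former site joined 3 SpCas9 peaks, and the values are those of the peak of highest fold. At a run of 3 sites between Tubb3 and Def8 on chromosome 8 the SaCas9 background was raised and the SpCas9 background was not. SaCas9 pileups there were 207, 177 and 142, and SpCas9 pileups 35, 18 and 25. The folds had the opposite order, 3.10, 3.12 and 2.67 for SaCas9 and 20.4, 13.0 and 17.1 for SpCas9. The enhancer guide had 10 raised sites, with SaCas9 higher in fold at 3 and in pileup at 9. Near Tubb3 the enhancer-guide pileups were 368 and 275 for SaCas9 and 20 and 13 for SpCas9. Cdk8, the Mediator kinase, had 61 and 30 with the promoter guide (folds of 2.93 and 3.92) and 111 and 76 with the enhancer guide (folds of 3.01 and 5.04).

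Across all shared sites, as a description, Spearman's rho between SaCas9 and SpCas9 was 0.767 for pileup and 0.367 for fold over 29 promoter-guide sites. Over 20 enhancer-guide sites it was 0.151 for pileup and 0.648 for fold. These points come from the same few libraries and mix raised with low backgrounds. Over the sites of low background rho for pileup was 0.453 with 12 sites and -0.0303 with 10.

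SaCas9 peaks with a fold of at least 10 and no SpCas9 partner were found with the promoter guide only. A fold of at least 10, a limit chosen after the values were seen, was reached there by 18 SaCas9 peaks, of which 5 were shared (27.8%, beside 20.7% of the whole list) and 13 had no SpCas9 partner. Of the 13, 11 lay in genes, as did 39 of the 60 SaCas9-specific peaks (65%) outside scaffolds, the mitochondrial genome and the start of chromosome 9. Of the enhancer-guide peaks 4 reached it and all 4 were shared. The limit is not alike for the guides, because the lowest SaCas9 background term was 3.65 with the promoter guide and 5.74 with the enhancer guide. The same fold thus asks for a higher pileup with the enhancer guide, and the part of this in the contrast was not tested. The highest of the 13 was at BC016579, chr16:45653601-45654318, with a pileup of 146 and a fold of 40.3. The SaCas9 list of the enhancer guide held it at a pileup of 20 and a fold of 3.66, and both Neuro2A lists held it too. The other 12 were in no SaCas9 peak of the enhancer guide. Next came chr19:38259107-38259749 in Gm32491 and Gm32574 (pileup 97, fold 24.5), Lhfp (pileup 91, fold 22.5), a site 3877 bp from Gm36339 (pileup 63, fold 16.6) and Rgma, for a repulsive axon guidance molecule (pileup 53, fold 14.8). Of these 13 peaks, all of low background, 6 were in a Neuro2A list. Beside this stand 40 of the 54 SaCas9-specific peaks of low background (74.1%) and 89 of all 111.

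The 7 found in neither Neuro2A list nor any other list included peaks in Ror2, a receptor for Wnt ligands, with a pileup of 49 and a fold of 13.7, and in Sall3, a zinc finger transcription factor, with 46 and 12.9. Ptprv, for a receptor-type tyrosine phosphatase, had 57 and 14.6. The SaCas9-specific peaks of highest fold with the enhancer guide were lower. They were 3 peaks at the start of chromosome 9 (folds of 5.72, 4.60 and 4.47), the peak at chr2:98662056 (fold 4.74, pileup 427) and a peak at chr3:8245350 (fold 4.46, pileup 77), which was in no other list.

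Most SpCas9 peaks of high fold had no SaCas9 partner, as in the lists as a whole. A fold of at least 40 was reached by 16 promoter-guide peaks, 5 of them shared (31.3%), and by 11 enhancer-guide peaks, 4 of them shared (36.4%), beside 35.9% and 19.7% of all SpCas9 peaks. The unshared ones, 11 and 7, were all in the SpCas9 list of the other guide, and 4 and 2 were in a Neuro2A list. Of all SpCas9-specific peaks, 49 of 59 (83.1%) and 51 of 110 (46.4%) were in the list of the other guide. In a Neuro2A list were 15 and 25 of them. A site 1190 bp from Prkag2, which encodes a regulatory subunit of AMP-activated protein kinase, had SpCas9 pileups of 259 (fold 175) and 199 (fold 99.4) with the promoter and enhancer guides. At Sim1 the SpCas9 pileups were 248 and 256 with the promoter guide and 252 and 268 with the enhancer guide. Neither SaCas9 list held a peak at the Prkag2 site. A site 647 bp from Cst9, a cystatin gene, had 166 (fold 117) and 172 (fold 91.9). Gm30242 had 98 (fold 69.4) and 108 (fold 42.1). A site 14714 bp from Cyp7b1, for an oxysterol hydroxylase, had 135 (fold 63.2) with the promoter guide, and Atg16l2, an autophagy gene, had 104 (fold 55.8) with the enhancer guide. The site near 4930527A07Rik, shared with the promoter guide, was SpCas9-specific with the enhancer guide (pileup 114, fold 61.1).

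Ranked by -log10 q, the 5 leading peaks of the SpCas9 lists were the chr14 site, both Sim1 sites and the sites near Prkag2 and Cst9. Those of the SaCas9 lists were the Sim1 sites, peaks of the mitochondrial genome and a peak at chr2:98662033 or chr2:98662056. Only the Sim1 sites led the lists of both antibodies.

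Few genes of the paraventricular lineage and of feeding circuits lay near a peak, as was true of genes in general. Of 28 such genes, including Otp, Oxt, Avp, Crh, Mc4r, Pomc, Agrp and Npy, 2 had a hypothalamus peak within 100 kb, beside 1148 of all 49997 RefSeq genes (2.30%). Sim1 was 1 and had SaCas9 and SpCas9 peaks. Lepr, for the leptin receptor, had a SpCas9 peak inside the gene at chr4:101737292-101737853, with a pileup of 14 (fold 10.5) with the promoter guide and 17 (fold 9.56) with the enhancer guide. Neither SaCas9 list had a peak within 100 kb of Lepr. The lowest pileups called in the SaCas9 lists were 16 and 20, and whether lower signal was present near Lepr was not tested.

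RNA offered a readout that the peak lists do not use. In the authors' deposited table of hypothalamus RNA, each guide is compared with none, and the genotype of the mice without a guide is not given for that comparison. The labels name RNA samples of promoter-guide, enhancer-guide, Sim1 heterozygous and wild-type mice. Each of these groups held both sexes and several ages in months, and the mix differed between groups. In that comparison 9 of 16415 genes (0.0548%) passed a false discovery rate of 0.05 in the authors' deposited table with the promoter guide, and 7 of 16408 (0.0427%) with the enhancer guide. In tissue RNA, fewer cells of a type and less RNA per cell cannot be told apart. No gene at a shared, SaCas9-only or SpCas9-only peak passed in the authors' deposited table, of 8, 23 and 33 such genes with a rate for the promoter guide and 9, 11 and 52 for the enhancer guide. At the background share these few genes would also hold none, so nothing is read from the counts.

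Sim1 had a log2 fold change of 0.47 with the promoter guide (false discovery rate 1.00) and 1.25 with the enhancer guide (0.0511) in the authors' deposited table. Other genes at shared peaks of the promoter guide had log2 fold changes from -0.28 for Klk6 to 0.27 for Fam83d in the authors' deposited table. With the enhancer guide Fam83d had -0.16, Med16 0.07, Tead1 0.09, Cdk8 0.17 and Zc3h7a 0.28 in the authors' deposited table. The median absolute log2 fold change in the authors' deposited table was 0.14 at shared, 0.14 at SaCas9-only and 0.09 at SpCas9-only genes for the promoter guide, beside 0.15 over all genes. For the enhancer guide the authors' deposited table gave 0.17, 0.26 and 0.33, beside 0.30 over all genes.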

How the data were processed

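Cas9 ChIP-seq of fixed hypothalamus was used. It was made, per the labels' protocols, with the Low cell ChIP kit and ThruPLEX. Tools named in the submitters' processing notes, without roles, are MACS2 2.1.1.20160309, STAR 2.5.2b, DESeq2 1.16.1 and CASAVA 1.8, with mm9 as the build. The coordinates lie in GRCm38 instead: 20215 genes of the RNA table matched RefSeq by symbol, 99.9% of them overlapping their RefSeq gene, so positions are given in GRCm38.

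Per the file headers, the authors deposited for each peak the pileup, a signal counted in fragments at the summit, a fold enrichment as a ratio over background, and a −log10 q-value. How the 2 libraries of a group were combined, and the control, are not given in the sources used here. Libraries without a guide and input libraries were not analysed here. Both kinds are labelled for SpCas9 in hypothalamus only, with none labelled for SaCas9 or Neuro2A. From the RNA table the authors' deposited mean normalized count, log2 fold change and false discovery rate, an adjusted p-value, were copied. Read totals are not in the lists, so depth is unknown and no interval is given.

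Peaks were matched with Python 3.11.15 and pandas 2.3.3, after the matching was tested on simulated data. Where a shared site joined several peaks of a list, its pileup and fold were those of the peak of highest fold. The ratios, medians and rho over shared sites rest on that choice. Places came from RefSeq gene bodies and 32851 listed gene starts. The background term was taken as (pileup + 1) / fold, which includes a pseudocount of 1. With 1 list per group no test was made and the scores describe peaks within their list. Named were every peak within 1 Mb of Sim1, the 5 of highest −log10 q and the 5 antibody-specific peaks of highest fold in each list, and up to 12 shared sites per guide by the lower fold, the last 2 outside scaffolds and the mitochondrial genome, plus 28 genes looked up within 100 kb. Other sites, and the fold limits of 10 and 40, were chosen after their values were seen. The members and lists were chosen with earlier results of these data known. 1 shared site of the enhancer guide is counted but not reported here by name.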

Additional observations from a re-analysis of the deposited data

How the results depend on the processing

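Of 86 values recomputed under other settings, 16 moved past the limits used (1.5 times for a count, the 95% interval over peaks for a median or share) and 3 reversed. Those intervals take peaks as units, measure no spread between libraries or animals, and are wide where few peaks are counted. A value that stayed within them is therefore not shown to be stable. The promoter-guide fold ratio, for example, stayed within them while going from 0.900 to 0.386. Counting only peaks with a fold of at least 5, shared peaks of the promoter guide numbered 11 of 61 SaCas9 and 11 of 74 SpCas9, and those of the enhancer guide 9 of 10 (90%) and 9 of 122 (7.38%). Without peaks of raised background, an alternative chosen after seeing the data, they were 12 of 67 and 12 of 74, and 10 of 33 and 10 of 122. Requiring 50% of both peaks left 17 shared SpCas9 peaks of the enhancer guide. Without raised peaks the median SaCas9 fold was 6.13 and the median pileup 49 for the promoter guide, and 4.46 and 70 for the enhancer guide. The median ratio of SaCas9 to SpCas9 fold at shared enhancer-guide sites was then 0.278, against 0.368, and at promoter-guide sites 0.386, against 0.900 (0.549 without scaffolds, the mitochondrial genome and the start of chromosome 9). Leaving out scaffolds, the mitochondrial genome and the start of chromosome 9 raised the SaCas9 share in genes to 61.0% and 56.5%. The median SpCas9 fold of shared over specific peaks reversed: from 0.266 to 1.38 for the promoter guide without raised peaks (0.847 without those places), and from 0.731 to 2.13 for the enhancer guide, or to 1.09 without those places. The cause was not tested, beyond the raised peaks being removed by construction.

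No paired analysis was possible because each guide and antibody has 1 peak list, with no replicate numbers in it. Leaving out each replicate was not run for the same reason. The read depth of the libraries is unknown, so a missing peak is one not called in that list. The lowest pileups called, 16 and 20 for SaCas9 against 8 and 10 for SpCas9, limit what could be seen.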
